A study of Zea mays with 6 samples.

Results

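The most abundant transcripts of the developing maize kernel below its top class are described here: 42 genes whose FPKM (fragments per kilobase of gene, scaled to the mapped fragments of the library) averaged from 1000 to below 10000 over 6 libraries. They were chosen by that level from the 33051 genes of the tables. Of the 49 genes in the range, 7 were set aside because their IDs are among 13 listed one by one or lie between Zm00001d048806 and Zm00001d048852, a group treated as a class of its own, which could not be checked by name. All 42 were above the filter of 1 FPKM used for testing. The mean level selected them, so their high level is no result, whereas the difference between the groups was not used in the choice. The members and the lists they are set beside were, however, chosen with earlier results of these data known.

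The study compared whole kernels of the inbred line KN5585, collected 10 days after pollination, between a line carrying introduced ZmSUS1 and its non-transgenic negative control, with 3 libraries labelled as biological replicates in each group. Both groups share the KN5585 background, the tissue and the age. The transgenic group comes from 1 selected strain, and the sources used here do not give the promoter of the transgene, the number of ears or the number of kernels in a library. A difference between the groups is therefore a difference between this strain and its control.

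A kernel at this age consists mostly of endosperm, which is passing from cell division to filling. Sucrose arrives through a basal transfer layer, is cleaved by invertase and by sucrose synthase, the enzyme that SUS1 encodes, and feeds starch synthesis, while storage protein genes, the zeins above all, come to dominate the messenger RNA. Below that class, abundant transcripts of cereal endosperm commonly encode enzymes of starch synthesis, translation factors, ribosomal proteins and small secreted proteins. Which of the 42 genes belong to which of these roles is not stated by the files, and the RefSeq gene table used here matched 0 of the 42 IDs. They are given by ID and ordered by level and by direction, and the kernel tissues they mark could not be checked by name.

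The 6 tables each summed to between 1359751 and 1378937 FPKM. SUS1 (Zm00001d047253), the gene meant to be overexpressed, was lower in the libraries labelled transgenic, at 155, 149 and 160 FPKM against 214, 210 and 221 FPKM (log2 fold change -0.47, limma adjusted p = 0.000759). Each group therefore goes by its label here, and every direction rests on these labels. The 20 genes at or above 10000 FPKM held 58.1 ± 1.21% of all FPKM under the control label and 62.9 ± 0.727% under the transgenic label (SD, n = 3 each). FPKM is a part of a total, so a larger part for these 20 leaves less for all other genes, and the median gene of the 20514 tested stood at a log2 fold change of -0.13. The comparison was therefore made on FPKM as deposited and again relative to the median gene, after dividing each library by a factor between 0.949 and 1.07. The rescaling moved the median gene to -0.00077.

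The levels of the 42 genes ran from 1009 to 8157 FPKM. Zm00001d052958 was the most abundant, with 9771, 9975 and 9348 FPKM under the control label and 6622, 6537 and 6686 FPKM under the transgenic label. Zm00001d030855 came next, with 8033, 7998 and 8047 FPKM under the control label and 7417, 7121 and 7148 FPKM under the transgenic label. Zm00001d034413 had 8357, 8432 and 8081 FPKM under the control label and 5112, 5018 and 5119.5 FPKM under the transgenic label. In these genes the libraries labelled control all lay above those labelled transgenic, by a wide gap in Zm00001d052958 and Zm00001d034413 and by a narrow one in Zm00001d030855. Zm00001d005230 had 5426, 4949 and 4679 FPKM under the control label and 6949, 6324 and 5415 FPKM under the transgenic label, and here the groups overlapped, since the lowest transgenic value was below the highest control value. Zm00001d024302, the next in level, had 6453, 6260.4 and 5956 FPKM under the control label and 5092, 4605 and 4194 FPKM under the transgenic label, without overlap.

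Both ends of the range were given by the level alone. The lowest members were Zm00001d035681, at a mean of 1009 FPKM, and Zm00001d019504, at 1015 FPKM, and the genes just below were Zm00001d036125, at 975 FPKM, and Zm00001d021668, at 967 FPKM. At the top, Zm00001d052958 averaged 8157 and Zm00001d030855 7627 FPKM, and the nearest genes above the range were Zm00001d048810, at 11103 FPKM, and Zm00001d048847, at 11499.5 FPKM. Both genes above the range belong to the set-aside IDs.

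**Figure D1:**
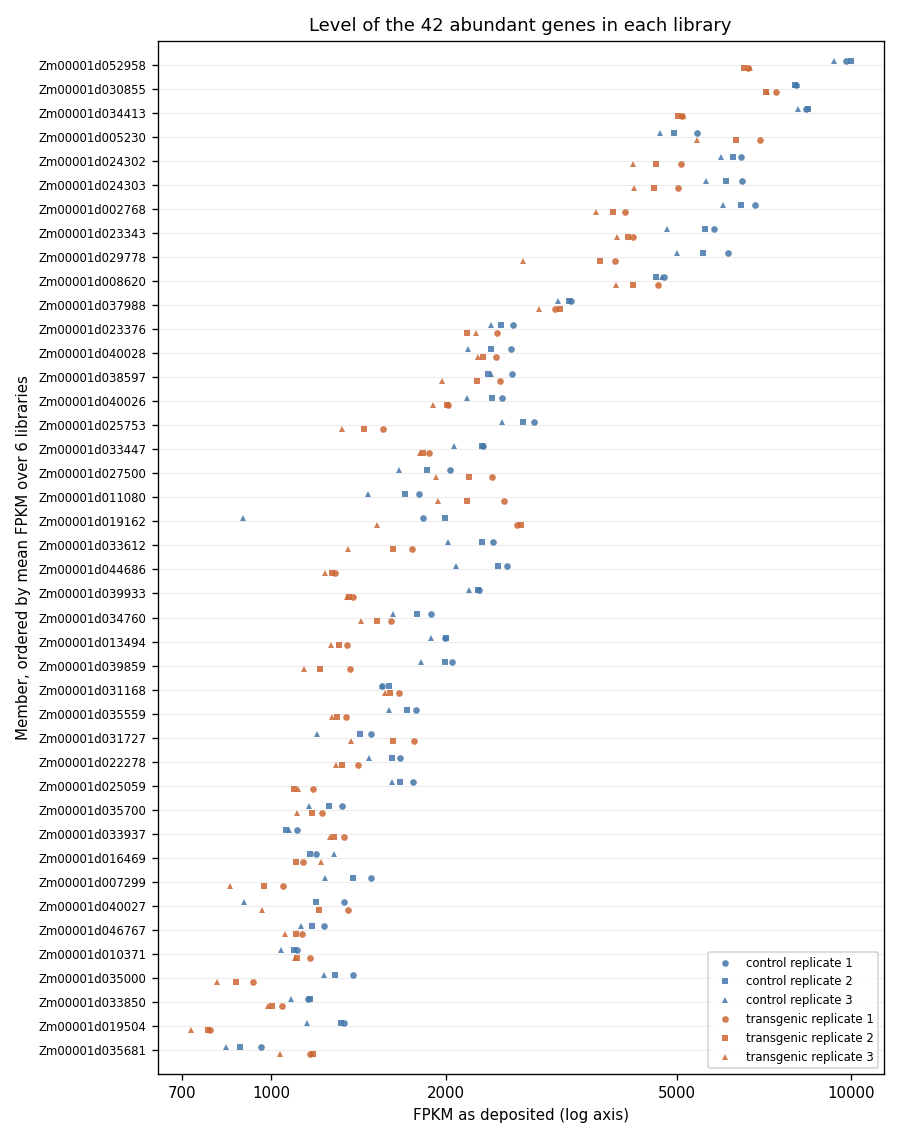
FPKM as deposited of the 42 genes in each of the 6 libraries, on a log axis, ordered by mean level; blue symbols are the libraries labelled control, orange those labelled transgenic, and the symbol shape gives the replicate. In 27 of the 42 genes the colours do not overlap, with orange to the left in 24 and to the right in 3, and triangles (replicate 3) lie at the low end of both groups in most genes.

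The 42 genes together took a smaller part of the libraries labelled transgenic. Their part of all FPKM was 9.32%, 9.06% and 8.40% under the control label and 7.61%, 7.25% and 6.78% under the transgenic label. The means were 8.92 ± 0.472% and 7.21 ± 0.413% (SD, n = 3 each), which is 19.2% lower, and no transgenic library reached the lowest control. Less abundant genes also held less of all FPKM. The 618 genes of 100 to below 1000 FPKM went from 10.7 ± 0.336% to 9.48 ± 0.259% (SD, n = 3 each), 11.8% lower. Genes of 10 to below 100 FPKM were 10.6% lower, so part of the 19.2% is not particular to the 42. As a share of the FPKM outside the 20 genes at or above 10000 FPKM, the 42 held 21.8%, 21.4% and 20.7% against 20.1%, 19.5% and 18.7%. On that basis the mean was 8.80% lower (21.3 ± 0.515% and 19.4 ± 0.735%, SD, n = 3 each), and the groups again did not overlap. The 618 genes of 100 to below 1000 FPKM held 25.7 ± 0.0580% and 25.5 ± 0.198% on the same basis (SD, n = 3 each). The 7 set-aside genes of the same range as the 42 went the other way, at 3.90 ± 0.0693% and 5.56 ± 0.196% (SD, n = 3 each). On this basis the larger share of the 7 offset most of the smaller share of the 42. The smaller share outside the 20 genes thus depends on leaving out these 7. It belongs to the 42 as chosen, and not to every gene from 1000 to below 10000 FPKM. These shares are sums over chosen genes and were given no test. In whole kernels, fewer cells of a type and less of a transcript in each cell cannot be told apart.

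**Figure D2:**
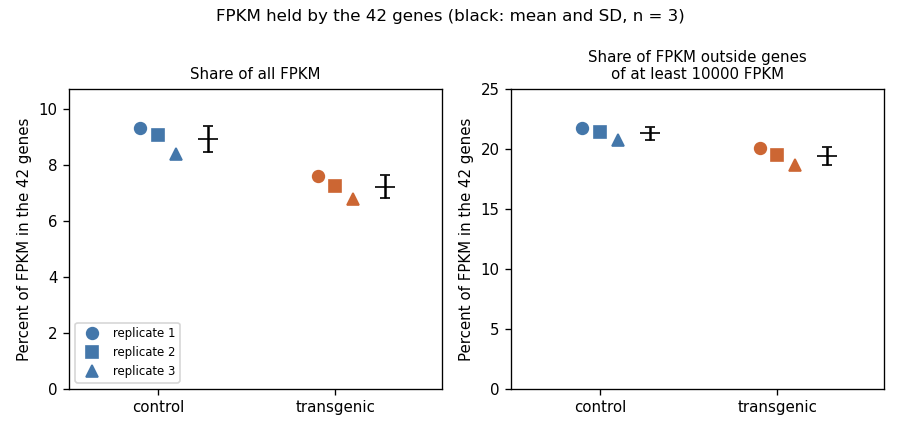
Percent of FPKM held by the 42 genes in each library, of all FPKM (left) and of the FPKM outside the 20 genes at or above 10000 FPKM (right); symbols are libraries and black bars the mean and SD of 3. In both panels the 3 libraries labelled transgenic lie below the 3 labelled control, and the gap is 19.2% of the control mean on the left and 8.80% on the right.

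The difference was spread unevenly over the genes. The summed mean FPKM of the 42 genes differed by -22776 under the transgenic label, made up of -26372 over 32 genes with a lower mean and 3596 over 10 genes with a higher mean. Zm00001d034413, Zm00001d052958, Zm00001d002768 and Zm00001d029778 made up 41.6% of the summed decrease of the 32 genes, and the 10 genes with the largest decreases 70.4%. A difference in FPKM also depends on the level of a gene, and these genes ranked 2, 1, 4 and 7 of the 42 by control mean.

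Gene by gene, the test asked which of the 42 differed between the groups beyond the spread among 3 libraries. On FPKM as deposited, 21 of the 42 fell and 3 rose under the transgenic label (limma, adjusted p under 0.05), where 16.2% of all genes tested fell and 2.88% rose (19.0% in all). One of the 3 rises, Zm00001d033937, is not a separate measurement: its 6 values are identical to those of Zm00001d045462, one of the IDs set aside, so 2 rises remain without it. Among the 21 falls, Zm00001d024302 and Zm00001d024303 differed by at most 6.03% in any library and may not be separate measurements. The 618 genes of 100 to below 1000 FPKM are a closer background, since their libraries scatter less within a group (median coefficient of variation 5.02% under the control label, against 9.56% over all genes tested and 6.30% over the 42). Of these 32.5% fell and 4.69% rose (37.2% in all). Relative to the median gene, 17 of the 42 fell and 8 rose, the same identical pair included, against 7.41% and 6.21% of all genes tested (13.6% in all) and 20.1% and 18.4% of the 618 (38.5% in all). The share of the 42 that fell, 50.0% as deposited and 40.5% relative to the median gene, was thus above both backgrounds, while the share that rose relative to the median gene, 19.0%, was near that of the 618. Whether these shares differ from the backgrounds was not tested.

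The groups did not overlap in 27 of the 42 genes as deposited, with the transgenic libraries lower in 24 and higher in 3. Of all genes tested, 38.9% did not overlap (31.6% lower and 7.36% higher), and of the 618 genes 54.7% (43.4% and 11.3%). After rescaling, 27 of the 42 did not overlap, with 19 lower and 8 higher, against 33.9% of all genes tested (17.0% and 16.9%) and 56.6% of the 618 (25.6% and 31.1%). The median log2 fold change of the 42 was -0.23 as deposited, where that of the 618 was -0.11, and -0.078 relative to the median gene, where that of the 618 was 0.035. The 42 spread more widely than the 618 around these medians, with a standard deviation of the log2 fold changes of 0.37 against 0.30. The 7 genes of the same range that were set aside had 3 rises and 0 falls as deposited, and the 20 genes at or above 10000 FPKM had 4 rises and 0 falls. Relative to the median gene, the 7 had 4 rises and 0 falls, and the 20 had 11 rises and 0 falls.

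The counts above come from fits that treat the libraries as unpaired. With the replicate number as a block, 26 of the 42 fell and 7 rose as deposited, including all 24 genes called without the block. On the rescaled values, 19 fell and 11 rose with the block, including all 25 called without it. The number of calls varied with single libraries. As deposited, between 17 (without control 2) and 23 (without control 3) fell when 1 library was left out. Between 1 (without control 2, transgenic 1 or transgenic 2) and 4 (without transgenic 3) rose. After rescaling, 11 fell without control 1, control 2 or transgenic 2, and 3 rose without control 2 or transgenic 2, 4 without transgenic 1 and 5 without control 1.

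**Figure D3:**
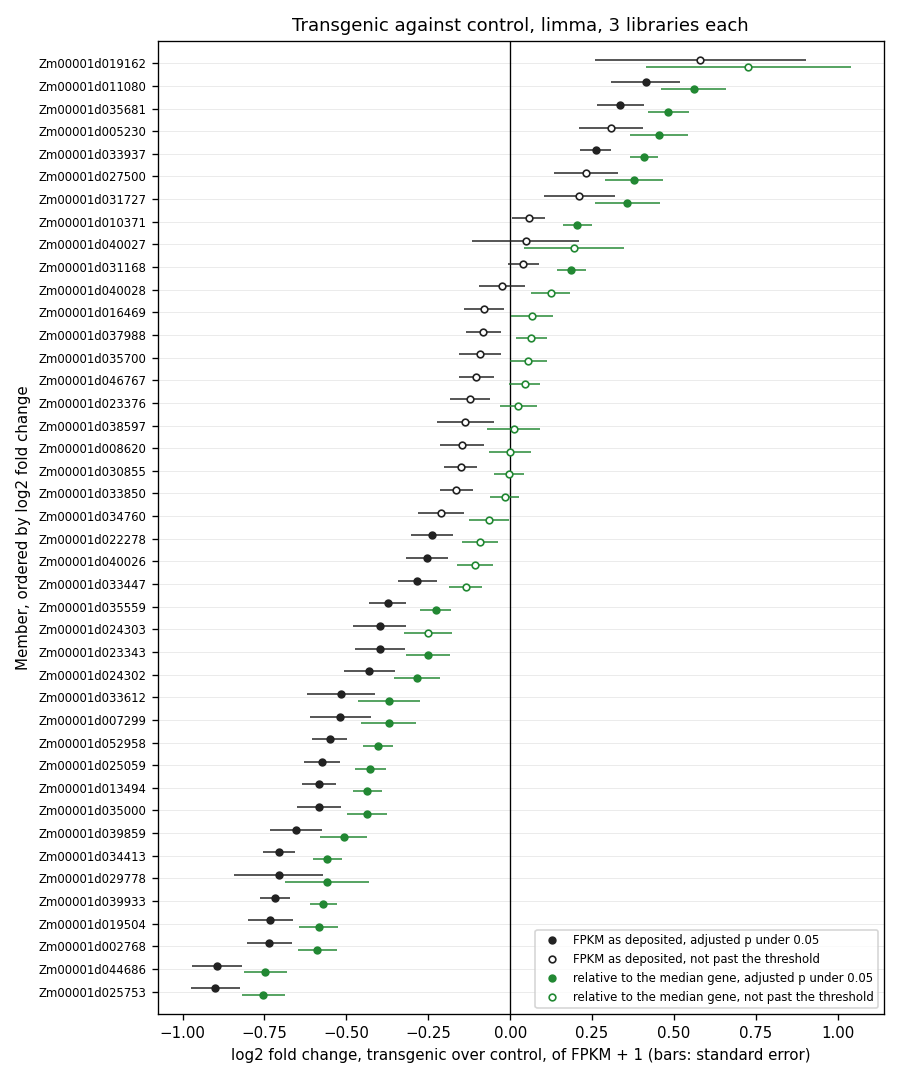
Log2 fold change of FPKM + 1, transgenic over control, for the 42 genes ordered by their value, with standard errors (limma, 3 libraries in each group); black is FPKM as deposited, green relative to the median gene, and filled symbols have an adjusted p under 0.05. Every green symbol lies to the right of its black one by about the same amount, and the 17 genes below 0 that are filled in both colours span -0.90 to -0.37 in black.

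The 17 genes that fell on both scales differed by -46.4% to -22.9% in mean FPKM, transgenic against control, at log2 fold changes of -0.90 to -0.37 as deposited and -0.75 to -0.23 relative to the median gene. Zm00001d025753 had 2839.5, 2720.0 and 2495 FPKM under the control label and 1555, 1442 and 1321 FPKM under the transgenic label. Its mean went from 2685 ± 175 to 1439 ± 117 FPKM (SD, n = 3 each). Its log2 fold change was -0.90 (SE 0.0750; limma, adjusted p = 0.000272). Every transgenic value was far below the lowest control value. Zm00001d044686 had 2543, 2459 and 2082 FPKM under the control label and 1285, 1272 and 1238 FPKM under the transgenic label. Its log2 fold change of -0.89 was close to that of Zm00001d025753 (SE 0.0767; limma, adjusted p = 0.000303). Both had the lowest log2 fold changes of the 42, and neither lost its call under any of the 15 alternatives to either comparison.

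Zm00001d002768 had 6808, 6455 and 6003 FPKM under the control label and 4063, 3881 and 3625 FPKM under the transgenic label. Its log2 fold change was -0.74 as deposited (SE 0.0682; limma, adjusted p = 0.00042) and -0.59 relative to the median gene (SE 0.0590; limma, adjusted p = 0.000712). The highest transgenic value was well below the lowest control value. Zm00001d019504, near the lower end of the range, had 1336, 1315 and 1152 FPKM under the control label and 783, 778 and 726 FPKM under the transgenic label. At a log2 fold change of -0.73 (SE 0.0681; limma, adjusted p = 0.000429) it fell as steeply as Zm00001d002768 from a far lower level.

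Zm00001d039933 gave the smallest adjusted p of the 42. It had 2278, 2269 and 2189 FPKM under the control label and 1384, 1363 and 1349.6 FPKM under the transgenic label, at a log2 value of -0.72 (SE 0.0457; limma, adjusted p = 8.05e-05). The 3 libraries within each group lay close together, with coefficients of variation of 2.19% and 1.26%. Zm00001d034413, whose values are given above, went from 8290.2 ± 185 to 5083 ± 56.8 FPKM (SD, n = 3 each) and was likewise tight, at a log2 fold change of -0.71 (SE 0.0499; limma, adjusted p = 0.00013). The leading gene Zm00001d052958 went from 9698 ± 319.9 to 6615 ± 74.6 FPKM (SD, n = 3 each), at -0.55 as deposited (limma, adjusted p = 0.000494) and -0.40 relative to the median gene (SE 0.0463; limma, adjusted p = 0.00124).

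In the middle of the range, Zm00001d039859 had 2049, 1989.5 and 1807 FPKM under the control label and 1367, 1214 and 1137 FPKM under the transgenic label (log2 fold change -0.65, limma adjusted p = 0.00137). Zm00001d013494 had 1993, 2004 and 1882 FPKM under the control label and 1349, 1307 and 1266 FPKM under the transgenic label (log2 fold change -0.58, limma adjusted p = 0.000325). Zm00001d025059 had 1755, 1669 and 1612 FPKM under the control label and 1178, 1093 and 1111 FPKM under the transgenic label (log2 fold change -0.57, limma adjusted p = 0.000481). These genes and Zm00001d035000, which had 1381, 1287 and 1230.3 FPKM under the control label and 929, 868 and 805 FPKM under the transgenic label, had differences of -36.4% to -32.8% in mean FPKM, and their groups did not overlap. Together with Zm00001d025753, Zm00001d044686, Zm00001d002768, Zm00001d019504, Zm00001d039933, Zm00001d034413 and Zm00001d052958 they are the 11 of the 17 that kept the call under every alternative on both scales. Quantile normalization gave smaller differences, by over 1.5 times against the values as deposited, for Zm00001d039933 (-0.37), Zm00001d034413 (-0.47), Zm00001d039859 (-0.37), Zm00001d013494 (-0.28) and Zm00001d025059 (-0.35).

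The other 6 genes that fell on both scales lost a call under at least 1 alternative. Without single libraries, calls were lost in fits of 5 libraries while the log2 fold change relative to the median gene stayed between 0.715 and 1.27 times its value with all 6. Zm00001d029778 had 6118, 5541 and 5008 FPKM under the control label and 3909, 3678 and 2715 FPKM under the transgenic label. The third transgenic value was far below the other two, and the SE of 0.136 was the widest among the falls (log2 fold change -0.71, limma adjusted p = 0.00998). Once rescaled it was at -0.56 (limma, adjusted p = 0.0254) and lost its call without control 1, control 2 or transgenic 2 (limma, adjusted p = 0.0514 and adjusted p = 0.0858 at the extremes). Zm00001d035559 had 1778, 1710.1 and 1592 FPKM under the control label and 1342, 1299.5 and 1274 FPKM under the transgenic label, at -0.37 as deposited (limma, adjusted p = 0.0035) and -0.23 relative to the median gene (limma, adjusted p = 0.0182). The second call was lost without control 1, control 2 or transgenic 2 (limma, adjusted p = 0.0733 and adjusted p = 0.0769 at the extremes). Zm00001d024302, whose values are given above, was at -0.43 (limma, adjusted p = 0.00738) and -0.28 (limma, adjusted p = 0.0339), the latter lost without control 1, control 2, control 3, transgenic 2 or transgenic 3 (limma, adjusted p = 0.0538 and adjusted p = 0.11 at the extremes).

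Under quantile normalization, Zm00001d024302 and Zm00001d035559 lost both calls and most of the difference, at -0.047 (limma, adjusted p = 0.545) and -0.056 (limma, adjusted p = 0.392). Without the filter on low values, the calls relative to the median gene were lost for Zm00001d029778 (limma, adjusted p = 0.0672) and Zm00001d024302 (limma, adjusted p = 0.104).

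Zm00001d007299 went from 1368 ± 124 to 956 ± 99.2 FPKM, Zm00001d033612 from 2243 ± 208 to 1573 ± 199 FPKM and Zm00001d023343 from 5404 ± 522 to 4089 ± 138 FPKM (SD, n = 3 each). As deposited their log2 fold changes were -0.52, -0.52 and -0.40 (limma, adjusted p = 0.00708, 0.0117 and 0.0101). After rescaling they were -0.37, -0.37 and -0.25 (limma, adjusted p = 0.0234, 0.0385 and 0.0413). All 3 were lower in every transgenic library than in any control as deposited. On the rescaled values, Zm00001d007299 lost its call without control 1, control 2 or transgenic 2 (limma, adjusted p = 0.0672 and adjusted p = 0.0814 at the extremes). Zm00001d033612 lost it without control 1, control 2, transgenic 2 or transgenic 3 (limma, adjusted p = 0.0636 and adjusted p = 0.119 at the extremes), and Zm00001d023343 without control 1, control 2, transgenic 1, transgenic 2 or transgenic 3 (limma, adjusted p = 0.0745 and adjusted p = 0.142 at the extremes). Zm00001d023343 also lost both calls under quantile normalization, at -0.075 (limma, adjusted p = 0.395), and Zm00001d033612 was smaller there, at -0.23, with its call kept (limma, adjusted p = 0.0226). Without the filter, all 3 calls relative to the median gene were lost (limma, adjusted p = 0.056, 0.088 and 0.12).

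A further 4 genes fell as deposited but did not pass relative to the median gene. Zm00001d024303 went from 6055 ± 432 to 4599.6 ± 402 FPKM (SD, n = 3 each), at -0.40 as deposited (limma, adjusted p = 0.0124) and -0.25 relative to the median gene (limma, adjusted p = 0.0556). Zm00001d033447 went from 2229 ± 140.5 to 1829.7 ± 34.0 FPKM, Zm00001d040026 from 2358 ± 169.9 to 1975 ± 63.8 FPKM and Zm00001d022278 from 1584 ± 99.7 to 1342 ± 63.1 FPKM (SD, n = 3 each). Their log2 fold changes of -0.28, -0.25 and -0.24 (limma, adjusted p = 0.0132, 0.0286 and 0.0337) became -0.14, -0.11 and -0.091 (limma, adjusted p = 0.115, 0.245 and 0.318). After rescaling, the groups still did not overlap in Zm00001d024303 and Zm00001d033447, but did in Zm00001d040026 and Zm00001d022278. As deposited, Zm00001d024303 lost its call without control 2 (limma, adjusted p = 0.0506), Zm00001d033447 without control 1, control 2 or transgenic 2 (limma, adjusted p = 0.0535 and adjusted p = 0.0628 at the extremes), Zm00001d040026 without control 1, control 2, transgenic 1, transgenic 2 or transgenic 3 (limma, adjusted p = 0.058 and adjusted p = 0.103 at the extremes), and Zm00001d022278 without control 1, control 2, transgenic 2 or transgenic 3 (limma, adjusted p = 0.0869 and adjusted p = 0.114 at the extremes). Quantile normalization ended all 4 calls: Zm00001d024303 stood at -0.047 (limma, adjusted p = 0.465) and Zm00001d040026 at -0.10 (limma, adjusted p = 0.186), while Zm00001d033447 and Zm00001d022278 turned positive, at 0.011 (limma, adjusted p = 0.916) and 0.073 (limma, adjusted p = 0.195). Without the filter, Zm00001d040026 and Zm00001d022278 lost their calls (limma, adjusted p = 0.0739 and 0.0759). With the block, Zm00001d024303 and Zm00001d033447 also passed relative to the median gene (limma, adjusted p = 0.00256 and 0.036). On that scale both passed without replicate 3 of both groups as well (limma, adjusted p = 0.0447 and 0.0371). Zm00001d024303 further passed with a filter of 5 FPKM and without transgenic 1 (limma, adjusted p = 0.0428 and 0.032), and Zm00001d033447 without control 3 (limma, adjusted p = 0.0486).

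Fewer genes rose than fell, with log2 fold changes of 0.26 to 0.41 as deposited and 0.19 to 0.56 relative to the median gene. Zm00001d011080 had 1797, 1700.0 and 1469 FPKM under the control label and 2519, 2171 and 1940.3 FPKM under the transgenic label. Its lowest transgenic value was above the highest control value, and the mean went from 1656 ± 168 to 2209.9 ± 291 FPKM (SD, n = 3 each), 33.5% higher. The log2 fold change was 0.41 (SE 0.107; limma, adjusted p = 0.0309), and 0.56 relative to the median gene (SE 0.0984; limma, adjusted p = 0.00861). As deposited the call was lost without control 2, control 3, transgenic 1 or transgenic 2 (limma, adjusted p = 0.0718 and adjusted p = 0.0803 at the extremes) and without the filter (limma, adjusted p = 0.0746). Relative to the median gene it was kept without any single library. Quantile normalization gave a larger value, 0.63 (limma, adjusted p = 9.05e-05). Zm00001d035681, the least abundant of the 42, had 958, 883 and 836 FPKM under the control label and 1165, 1179 and 1036 FPKM under the transgenic label, without overlap (log2 fold change 0.34, limma adjusted p = 0.0149). Its call as deposited was lost without control 2, transgenic 1 or transgenic 2 (limma, adjusted p = 0.0519 and adjusted p = 0.0623 at the extremes).

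Zm00001d033937 had 1105, 1058 and 1072 FPKM under the control label and 1336, 1282 and 1262 FPKM under the transgenic label. It was 19.9% higher by its mean, at a log2 fold change of 0.26 (SE 0.0476; limma, adjusted p = 0.00779). Zm00001d045462, one of the set-aside IDs, has the same value in each library, so these genes cannot be told apart. Its change was the smallest of the 3 rises, and of the 3 it alone was called under all 15 alternatives as deposited, with 0.41 under quantile normalization. Once rescaled, the 3 genes stood at 0.56 (Zm00001d011080), 0.48 (Zm00001d035681) and 0.41 (Zm00001d033937), and all 3 were called under all 15 alternatives.

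Another 5 genes passed as higher relative to the median gene but not as deposited. Zm00001d005230, the fourth most abundant of the 42, was at 5018 ± 378 and 6229 ± 771 FPKM (SD, n = 3 each), 0.31 as deposited (limma, adjusted p = 0.0617) and 0.45 relative to the median gene (limma, adjusted p = 0.0143). Zm00001d027500 was at 1848 ± 185 and 2171 ± 241 FPKM and Zm00001d031727 at 1367 ± 152 and 1584 ± 196 FPKM (SD, n = 3 each), with 0.38 and 0.36 relative to the median gene (limma, adjusted p = 0.0283 and 0.0492). These genes also passed as deposited with the replicate block (limma, adjusted p = 0.00206, 0.00174 and 0.00317). Zm00001d010371 was at 1080.2 ± 36.0 and 1124 ± 37.4 FPKM and Zm00001d031168 at 1565 ± 26.3 and 1609 ± 44.7 FPKM (SD, n = 3 each). As deposited their log2 fold changes were 0.057 and 0.04 (limma, adjusted p = 0.462 and 0.589), and they stood at 0.20 and 0.19 relative to the median gene (limma, adjusted p = 0.0206 and 0.0282).

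Each of these 5 calls relative to the median gene was lost without at least 1 of the 6 libraries. That of Zm00001d005230 was lost without control 2 or transgenic 2 (limma, adjusted p = 0.0557 and adjusted p = 0.0582), that of Zm00001d027500 without control 2, control 3, transgenic 1 or transgenic 2 (limma, adjusted p = 0.0717 and adjusted p = 0.0883 at the extremes), and that of Zm00001d031727 without control 1, control 2, control 3, transgenic 1 or transgenic 2 (limma, adjusted p = 0.0725 and adjusted p = 0.138 at the extremes). Zm00001d010371 lost it without control 1, control 2, transgenic 1 or transgenic 2 (limma, adjusted p = 0.0563 and adjusted p = 0.0743 at the extremes), and Zm00001d031168 without control 1, control 2, transgenic 1 or transgenic 2 (limma, adjusted p = 0.0745 and adjusted p = 0.106 at the extremes). Each of these fits held 5 libraries. Without the filter, Zm00001d027500, Zm00001d031727 and Zm00001d031168 lost the call (limma, adjusted p = 0.0703, 0.105 and 0.0675), and Zm00001d031727 also with a pseudocount of 0.1 (limma, adjusted p = 0.0511). Quantile normalization gave Zm00001d031168 a larger value, 0.35 (limma, adjusted p = 0.00687).

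The remaining 13 genes passed on neither scale. Zm00001d019162 had the highest log2 fold change of the 42, 0.58 as deposited and 0.73 relative to the median gene, with the widest standard errors (0.322 and 0.312; limma, adjusted p = 0.242 and 0.171). It had 1828, 1992 and 893 FPKM under the control label and 2654, 2697 and 1521 FPKM under the transgenic label. The third library was far below the other two in both groups, and the third transgenic value lay below the first and second control values. With the replicate block the log2 fold change as deposited was the same with a limma adjusted p of 0.00148, and when replicate 3 was dropped from both groups it was 0.49 (limma, adjusted p = 0.00202). Its call depended on how replicate 3 was treated.

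Zm00001d030855, the second most abundant, differed by -9.94% in mean FPKM without overlap, at -0.15 as deposited (limma, adjusted p = 0.0706). After rescaling it stood at -0.0041 (SE 0.0466), level with the median gene. Zm00001d008620 was at 4695 ± 74.8 and 4252 ± 358 FPKM (SD, n = 3 each), likewise near the median gene (0.00097, SE 0.0642). Zm00001d016469 was at 1215 ± 61.5 and 1149 ± 60.2 FPKM and Zm00001d040027 at 1142 ± 223 and 1175 ± 198 FPKM (SD, n = 3 each), and both overlapped between the groups. The other 8, Zm00001d037988, Zm00001d023376, Zm00001d040028, Zm00001d038597, Zm00001d034760, Zm00001d035700, Zm00001d046767 and Zm00001d033850, lay between -0.21 (Zm00001d034760) and -0.023 (Zm00001d040028) as deposited. With the replicate block, Zm00001d030855, Zm00001d034760, Zm00001d033850, Zm00001d023376 and Zm00001d046767 passed as lower as deposited (limma, adjusted p = 0.00631, 0.00292, 0.0117, 0.0337 and 0.0377), and relative to the median gene Zm00001d040027 and Zm00001d040028 passed as higher (limma, adjusted p = 0.00775 and 0.0431).

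Ratios of genes within a library do not depend on how the library is scaled, and they show that the order of the 42 differed between the groups. Zm00001d052958 over Zm00001d030855, the leading pair, was 1.22, 1.25 and 1.16 under the control label and 0.893, 0.918 and 0.935 under the transgenic label. Zm00001d052958 was thus the highest of the 42 in every library labelled control and stood below Zm00001d030855 in every library labelled transgenic. Zm00001d005230 over Zm00001d002768 was 0.797, 0.767 and 0.779 under the control label and 1.71, 1.63 and 1.49 under the transgenic label, so this pair changed places as well. Zm00001d005230 ranked 9 of the 42 by its control mean and 3 by its transgenic mean, and Zm00001d002768 ranked 4 and 9. Zm00001d011080 over Zm00001d025753 was 0.633, 0.625 and 0.589 under the control label and 1.62, 1.51 and 1.47 under the transgenic label. The pairs after the leading one were picked with their values in view and were given no test.

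Among the 42, 5 genes have an ID within 10 numbers of another member: Zm00001d024302 and Zm00001d024303, and Zm00001d040026, Zm00001d040027 and Zm00001d040028. Zm00001d024302 and Zm00001d024303 had nearly the same level in each library. Their ratio was 0.996, 1.03 and 1.06 under the control label and 1.02, 1.01 and 0.995 under the transgenic label, and they differed by at most 6.03%. Near-identical copies would give such values if their reads were split between them, which was not tested, so these 2 genes may not be separate measurements. The other shared measurement is that of Zm00001d033937 and the set-aside Zm00001d045462, given above.

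Zm00001d040026 to Zm00001d040028 did not keep a fixed ratio to each other. Zm00001d040026 over Zm00001d040028 was 0.966, 1.01 and 0.995 under the control label and 0.826, 0.867 and 0.836 under the transgenic label, with every transgenic ratio below every control ratio. Zm00001d040027 over Zm00001d040028 was 0.517, 0.498 and 0.412 under the control label and 0.554, 0.523 and 0.423 under the transgenic label, and here the groups overlapped. Zm00001d040027 had 1336, 1191 and 898 FPKM under the control label and 1354, 1209 and 963 FPKM under the transgenic label. The third library was the lowest in both groups, and the spread within a group was wider than the difference between the groups.

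Replicate 3 stood apart within both groups. Its value was the lowest of the group in 36 of the 42 genes under the control label and in 36 under the transgenic label, and it was below the mean of replicates 1 and 2 in both groups in 37 of the 42 (88.1%). The same held for 60.0% of the 618 genes of 100 to below 1000 FPKM and for 35.1% of all genes tested. The median ratio of replicate 3 to the mean of replicates 1 and 2 over the 42 was 0.904 for the control label and 0.930 for the transgenic label. On the rescaled values, 35 of the 42 (83.3%) were below in both groups, against 51.1% of the 618, with median ratios of 0.930 and 0.937. The labels do not say what replicate 3 of each group share, and the cause was not tested.

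**Figure D4:**
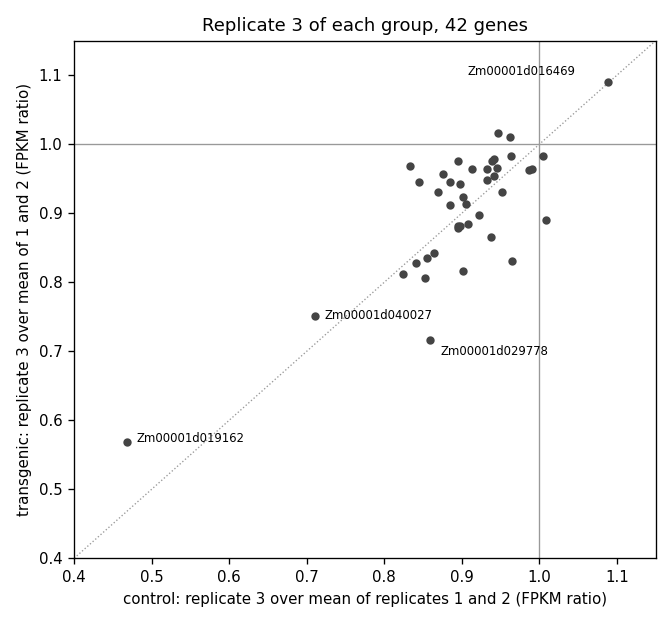
FPKM of replicate 3 divided by the mean of replicates 1 and 2 for the 42 genes, in the libraries labelled control (x axis) and labelled transgenic (y axis); grey lines mark a ratio of 1 and the dotted line equal ratios. In 37 genes both ratios are below 1; Zm00001d019162 lies farthest from the rest, at 0.468 and 0.569, and Zm00001d016469 is above 1 on both axes.

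The size of this ratio differed widely among the 42. For Zm00001d019162 it was 0.468 among the control libraries and 0.569 among the transgenic ones, and for Zm00001d040027 0.710 among the control libraries and 0.751 among the transgenic ones. For Zm00001d029778 it was 0.859 among the control libraries and 0.716 among the transgenic ones, so the drop was larger in the transgenic group. At the other end, Zm00001d016469 had 1193, 1167 and 1284 FPKM under the control label and 1131, 1100.2 and 1216 FPKM under the transgenic label, and replicate 3 was the highest of both groups, at ratios of 1.09 and 1.09. It was the only one of the 42 above 1 in both groups. Zm00001d030855 (1.00 among the control libraries and 0.983 among the transgenic ones) and Zm00001d034413 (0.963 among the control libraries and 1.01 among the transgenic ones) stayed near 1. The coefficient of variation within a group had a median of 6.30% over the 42 genes in the libraries labelled control, between 0.315% (Zm00001d030855) and 37.7% (Zm00001d019162), and a median of 5.13% in those labelled transgenic, between 1.12% (Zm00001d034413) and 29.1% (Zm00001d019162). Without replicate 3 of both groups, 24 of the 42 fell and 7 rose as deposited, and 19 fell and 9 rose relative to the median gene.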

How the data were processed

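Messenger RNA libraries of 6 whole-kernel samples, 3 in each group, were deposited as 1 table each of FPKM with 2 decimals, per the file headers. Groups and replicate numbers came from the sample titles. The submitters' processing notes name DESeq2 but no role for it. The sources used here do not give the genome build, the annotation, the aligner, the counter or whether strand was used. Total fragments are not given, so no counting interval was computed. Low values gave relative depths of 1 to 1.02 against control 1. Equal values after rounding to 2 decimals pull this estimate towards 1, so it cannot show that depths were alike.

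The 42 genes and all lists were chosen with earlier results of these data known. From the deposited FPKM, log2(FPKM + 1) was computed for the 20514 genes averaging 1 FPKM or more and fitted in R 4.3.3 with limma 3.58.1, using a trended prior variance and no covariate on the 6 libraries. P-values (2-sided) were adjusted by Benjamini-Hochberg across these genes, with 0.05 as the threshold, and every fold change refers to log2(FPKM + 1). Each p-value sets the difference between the groups against the spread between the 3 samples of a group, after that spread was drawn towards the prior variance. The comparison relative to the median gene divides each library by the median ratio to the geometric mean over genes above 0 in all 6. Alternatives covered pseudocount, filter, scaling, replicate block, threshold and left-out libraries.

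Deviations from the group means of same-numbered libraries correlated across genes at 0.135, 0.122 and 0.325. The main fits treated the libraries as unpaired, and the replicate number entered only as an alternative. No label states a pairing. Control 2 with transgenic 1 reached 0.105 and control 1 with transgenic 2 reached 0.0847, so only replicate 3 stood clearly apart.

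Named were the 5 most abundant members, the 12 smallest adjusted p in each comparison, the 3 highest and 3 lowest fold changes and replicate 3 ratios, the genes at the ends of the range, and SUS1. Other members were named after their values were seen.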

Additional observations from a re-analysis of the deposited data

How the results depend on the processing

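Alternatives were compared by the number of the 42 genes called. As deposited, 3 genes rose, against 7 with the replicate block, 9 with quantile normalization, 8 when the 20 most abundant genes were left out of the scaling sum, 7 without replicate 3 of both groups, 1 at an adjusted p under 0.01, and 1 to 4 without single libraries. The 21 that fell ranged from 14 (quantile normalization) to 26 (block), and from 17 to 23 without single libraries. Relative to the median gene, 8 rose, against 5 without the filter, 3 at an adjusted p under 0.01 and 3 to 8 without single libraries, and 17 fell, against 11 at an adjusted p under 0.01 and 11 to 17 without single libraries. Fits without a library hold fewer samples. Under all 15 alternatives to each comparison, 13 of the 21 and 11 of the 17 falls were called, and 1 of the 3 and 3 of the 8 rises. That 1 rise is Zm00001d033937, whose values are those of a set-aside ID. The 15 are not independent checks. Other pseudocounts hardly move genes of this level. Quantile normalization and the sum without the 20 most abundant genes are the same fits in both comparisons.

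Quantile normalization turned 3 genes that were called as deposited or under it from lower to higher: Zm00001d008620 (0.13, limma adjusted p = 0.0441), Zm00001d022278 (0.073, not called) and Zm00001d033447 (0.011, not called). Another 3 changed from lower to higher without a call in either fit: Zm00001d034760 (-0.21 to 0.10), Zm00001d030855 (-0.15 to 0.075) and Zm00001d040028 (-0.023 to 0.091). The cause was not tested. Over all alternatives to both comparisons, a value changed sign without a call on either side in 38 cases, the latter 3 among them. The share of FPKM held by the 42 was 19.2% lower of all FPKM, 8.80% lower outside the 20 genes at or above 10000 FPKM, and 16.8% to 21.5% lower without single libraries. SUS1 kept its direction and its call throughout. Depth is not known, so no limit on low values was set, and none of the 42 is low.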

Other observations

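Of the measured IDs that are not among the 42 but lie within 5 ID numbers of a member, 11 had a mean of at least 100 FPKM. Their group means lay on the same side as the member's in 9 of 11 as deposited and in 8 of 11 relative to the median gene. Sides are often shared without nearness, since 71.2% of all genes tested and 76.2% of the 42 had a negative log2 fold change as deposited. Relative to the median gene these shares were 50.1% and 57.1%. Whether near IDs share a side more often than other genes was not tested. The 3 described here were chosen after their values were seen. Next to Zm00001d035681, Zm00001d035680 was at 355 ± 13.5 FPKM under the control label and 608 ± 34.2 FPKM under the transgenic label (SD, n = 3 each), which is 0.77 on the log2 scale (limma, adjusted p = 0.000158) and 0.92 relative to the median gene (limma, adjusted p = 5.48e-05). Near Zm00001d039933, Zm00001d039936 was at 242 ± 27.4 and 143 ± 3.18 FPKM (SD, n = 3 each; log2 fold change -0.75, limma adjusted p = 0.000696), and Zm00001d039935 at 133 ± 21.3 and 68.1 ± 10.05 FPKM (SD, n = 3 each; log2 fold change -0.96, limma adjusted p = 0.00311). The sources used here give neither what these genes encode nor whether nearby ID numbers mean nearby places in the genome.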
